A study of Cornus officinalis with 7 samples.

Results

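The 200 unigenes described here are the most abundant of those whose expression stayed within a narrow range over 6 tissues of *Cornus officinalis*, a deciduous medicinal tree of the *Cornaceae*. A unigene is a transcript sequence of the *de novo* assembly. Its level was measured as FPKM, the number of fragments per kilobase of unigene, scaled to the mapped fragments of the library. A unigene was taken as steady when its highest FPKM over young leaf, mature leaf, young stem, pericarp, seed and inflorescence was at most 2 times its lowest, and the lowest was at least 1. Of the 304371 unigenes, 26769 had a lowest FPKM of at least 1, and 4271 of these (16.0%) were steady. The members are the 200 of these with the highest lowest FPKM, so they were chosen by their measured FPKM in the 6 tissues. Mature stem, the seventh tissue, played no part in the choice, so of the deposited values only those of mature stem are independent of the choice. That library stood apart from the other 6: 81.1% of the 26769 unigenes were listed at 0 in it and 99.4% lay below 10% of their median elsewhere. Whether its label or its plant material matches the others was not tested, and its values bear on the members only with that limit.

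RNA was taken from 7 tissues of *C. officinalis* grown outdoors in a medicinal garden, and 1 strand-specific library was made per tissue. Per the labels, all tissues carry 1 identifier of plant material, an age of 12 years, no treatment and no genotype. Messenger RNA was picked from total RNA by its poly(A) tail. In bulk tissue, fewer cells of a type and less RNA per cell cannot be told apart. With 1 library per tissue there is no replicate check on any difference, no test was possible and no p-value is given. All values that follow, except those of mature stem and those of a tissue left out of the choice, describe what the choice fixed and support nothing by themselves.

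Genes that are expressed at a similar level in every tissue are often called housekeeping genes. They typically encode parts of the machinery that every plant cell needs, such as protein synthesis and turnover, energy metabolism and the cytoskeleton, and some of them serve as reference genes when transcript levels are compared between tissues. The deposited tables do not pair unigenes with gene names. The only names used here are those of the study's lists of triterpenoid, iridoid and gallotannin enzymes and of cytochrome P450s (CYPs), which the study assigned by sequence similarity. The study also annotated part of its unigenes by Blastx and assigned some to pathways. Those annotations were not used here. The tissue labels were therefore not checked against marker genes.

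The libraries had similar summed FPKM. The largest sum was 992186, in mature stem, and the other 6 lay between 876794 (young stem) and 975250 (pericarp). FPKM carries no read counts. On unigenes above 0 only in young stem and 1 other library, the commonest FPKM ratio (the common step) was read as 1 fragment in each. By that reading, 1 fragment was worth between 1.07 times (seed) and 1.74 times (inflorescence) the FPKM it was worth in young stem. Young stem would then be the deepest and inflorescence the shallowest of the 6 libraries. The step held 17.5% of such unigenes in inflorescence and 24.7% (mature leaf) to 32.4% (young leaf) in the others. The reading was not tested. In mature stem only 1.62% of 619 such unigenes shared a common step, and its relative depth could not be read.

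The members had a lowest FPKM between 54.2 and 601, with a median of 78.2, and a highest FPKM between 69.9 and 1082, with a median of 129. The lowest FPKM was 200 or more in 10 members, from 100 up to 200 in 44 and below 100 in 146. They were therefore abundant but not the most abundant transcripts. The best placed member ranked between 34 (inflorescence) and 128 (mature leaf) among all unigenes of a tissue, and the median member between 943 (young stem) and 1169 (mature leaf). Of the 500 unigenes with the highest FPKM in a tissue, 25 to 31 were members. Another 154 to 274 were unigenes at least as abundant in every tissue that were not steady.

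The member with the highest level was Unigene273251. It had an FPKM of 778 in young leaf, 619 in mature leaf, 885 in young stem, 694 in pericarp, 601 in seed and 1082 in inflorescence. Its inflorescence value stood above the others and its lowest value was in seed. Unigene139717 had 636 in young leaf, 585 in mature leaf, 573 in young stem, 813 in pericarp, 473 in seed and 442 in inflorescence. It was high in pericarp and low in inflorescence. Unigene139522 had 416 in young leaf, 348 in mature leaf, 585 in young stem, 548 in pericarp, 417 in seed and 426 in inflorescence. Its high tissues were young stem and pericarp, while young leaf, seed and inflorescence lay close together. Unigene241582 had 342 in young leaf, 361 in mature leaf, 422 in young stem, 651 in pericarp, 538 in seed and 667 in inflorescence, so its values for both leaves and young stem lay below those of the fruit tissues and inflorescence. Unigene256245 had 350 in young leaf, 442 in mature leaf, 584 in young stem, 379 in pericarp, 294 in seed and 479 in inflorescence, and was highest in young stem. Unigene101075 went the other way from Unigene241582, with 414 in young leaf, 474 in mature leaf, 381 in young stem, 259 in pericarp, 238 in seed and 330 in inflorescence.

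The next 4 members by level stayed between 206 and 373 FPKM. Unigene298303 was lowest in seed, at 214, and highest in inflorescence, at 359. Unigene139461 had the narrowest range of the 10, from 212 in mature leaf to 304 in young stem. Unigene072272 and Unigene139360 were both lowest in seed, at 206 each, and highest in pericarp, at 333 and 373. Of these 10 members, 6 had their lowest value in seed. Seed was the lowest tissue for 15.5% of the 200 members and for 18.1% of all 26769 unigenes with a lowest FPKM of at least 1. The ratio of highest to lowest FPKM of the 10 members had a median of 1.81. It was 1.68 for the 44 members with a lowest FPKM from 100 up to 200 and 1.68 for the 146 below 100.

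**Figure D1:**
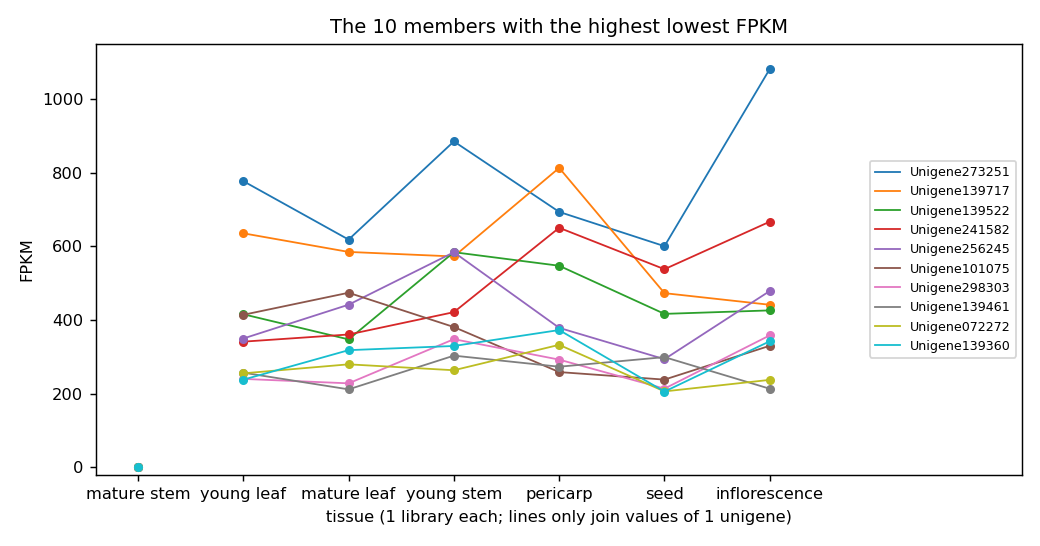
FPKM (linear axis) of the 10 members with the highest lowest FPKM in each of the 7 libraries, 1 point per unigene and library, with lines joining the 6 tissues used by the rule. The 10 unigenes lie between 206 and 1082 FPKM in the 6 tissues and at 1.99 FPKM or less in mature stem.

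Most members lay in the upper part of the range that the rule allowed. The ratio of highest to lowest FPKM had a median of 1.69 and ran from 1.15 to 1.99. It was above 1.75 in 85 members (42.5%), from above 1.5 to 1.75 in 71, from above 1.25 to 1.5 in 40 and at most 1.25 in 4. The other 4071 steady unigenes had a median ratio of 1.75, and 50.3% of them were above 1.75. The coefficient of variation (CV, the SD over the mean of the 6 tissues) had a median of 0.200 among the members and 0.212 among the other steady unigenes. The 506 unigenes at least as abundant that were not steady had a median ratio of 3.20. A ratio above 5 was found for 116 of these and a ratio above 10 for 47.

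On the deposited scale, the 4 members with a ratio of at most 1.25 were nearly level. Unigene174667 had an FPKM of 94.4 in young leaf, 101 in mature leaf, 97.2 in young stem, 91.8 in pericarp, 87.7 in seed and 94.98 in inflorescence, a ratio of 1.15 and a CV of 0.0468. Unigene115687 ran from 63.9 in inflorescence to 73.6 in young stem. Unigene079495 ran from 109 in mature leaf to 131 in pericarp. Unigene189622 ran from 56.3 in mature leaf to 69.9 in young leaf. The fifth by ratio, Unigene140155, ran from 73.6 in mature leaf to 92.2 in pericarp. Their lowest and highest tissues differed, and mature leaf was the lowest in 3 of the 5. After division of each library by its median ratio, a rescaling described below, the ratio of Unigene174667 was 1.47. It was 1.51 for Unigene115687, 1.33 for Unigene079495, 1.35 for Unigene189622 and 1.21 for Unigene140155.

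At the edge of the list the values changed little. The last members, Unigene075118, Unigene079982 and Unigene249237, had a lowest FPKM of 54.3, 54.3 and 54.2. The next steady unigenes, Unigene034898, Unigene236634 and Unigene299101, had 54.0, 54.0 and 53.9. The members nearest to the ratio limit were Unigene234217, Unigene270966 and Unigene101075, with ratios of 1.99 each. Just past it lay Unigene255439, Unigene234846 and Unigene199515, with ratios of 2.001, 2.003 and 2.003, and Unigene199515 would have been among the 10 most abundant with its lowest FPKM of 209.

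The share of steady unigenes depended on the level. Among unigenes with a lowest FPKM from 1 up to 2 it was 6.08%, and it was 11.6% from 2 up to 5, 21.0% from 5 up to 10 and 29.5% from 10 up to 20. It reached 33.4% from 20 up to 50 and 32.4% from 50 up to 100, and was lower again at 23.4% from 100 up to 200 and 17.2% at 200 or more. Of the 706 unigenes with a lowest FPKM of at least 54.2, the 200 members made up 28.3%. All members thus lay above the range of 20 up to 50, where the share was highest. Most came from the next range, where it was 32.4%.

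**Figure D2:**
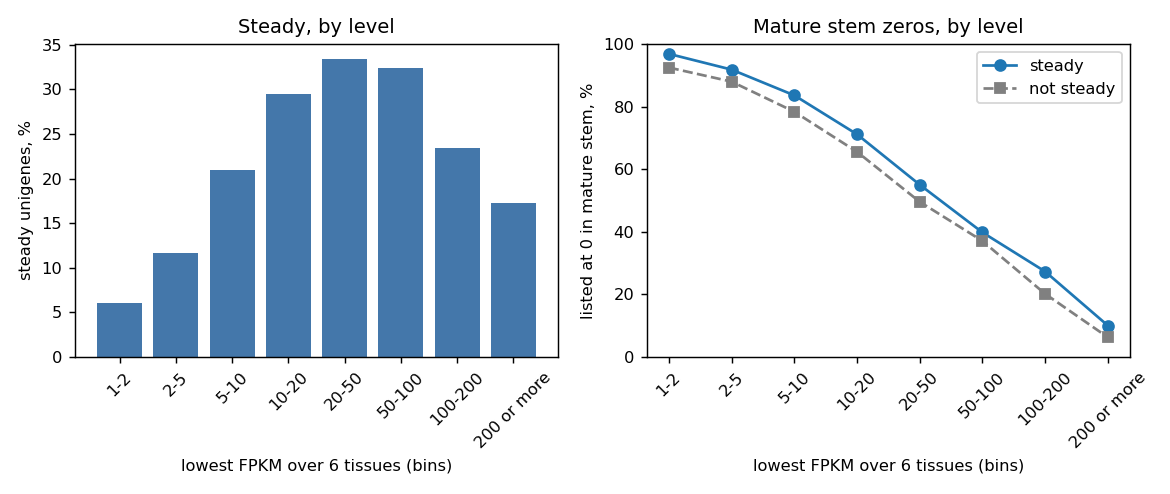
Share of steady unigenes (left, %) and share listed at 0 in mature stem (right, %) by the lowest FPKM over 6 tissues, in bins, for the 26769 unigenes with a lowest FPKM of at least 1. The steady share is highest, at 33.4%, from 20 up to 50 FPKM, and the share at 0 in mature stem becomes smaller with level for steady (circles) and not steady (squares) unigenes.

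The members together held a small and similar part of each of the 6 libraries. Their summed FPKM was 25050 in young leaf, 22526 in mature leaf, 27479 in young stem, 26632 in pericarp, 24669 in seed and 26288 in inflorescence. This was 2.64% of the library sum in young leaf, 2.46% in mature leaf, 3.13% in young stem, 2.73% in pericarp, 2.78% in seed and 2.79% in inflorescence. The 10 members with the highest lowest FPKM alone held between 0.392% (seed) and 0.533% (young stem). The other 4071 steady unigenes held 6.05% to 7.58%. The 506 unigenes as abundant that were not steady held 15.7% in seed to 26.2% in pericarp. The rule set these unigenes apart by their spread, so a range wider than that of the members supports nothing by itself.

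The differences that remained among the members were not spread evenly over the tissues. For each member, the FPKM of a tissue was divided by the geometric mean of its own 6 values, and the log2 of this ratio is called the residual. The median residual over the members was highest in young stem, at 0.14, and lowest in mature leaf, at -0.20. It was 0.030 in inflorescence, 0.016 in seed, 0.0062 in pericarp and -0.020 in young leaf. Young stem was above the own mean in 147 of the 200 members, beside 16857 of the 26769 unigenes with a lowest FPKM of at least 1. Mature leaf was above it in 42 of the 200 members, beside 8396 of the 26769. Over all 26769 unigenes with a lowest FPKM of at least 1, the median was -0.29 in mature leaf, 0.16 in young stem and 0.16 in inflorescence. Relative to that shift of the libraries, the members' median was 0.093 higher in mature leaf, lower in young stem with a difference of -0.017, and lower in inflorescence with a difference of -0.13. The low value in mature leaf and the high value in young stem are therefore not particular to the members, and both changed sign when the libraries were divided by that shift.

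**Figure D3:**
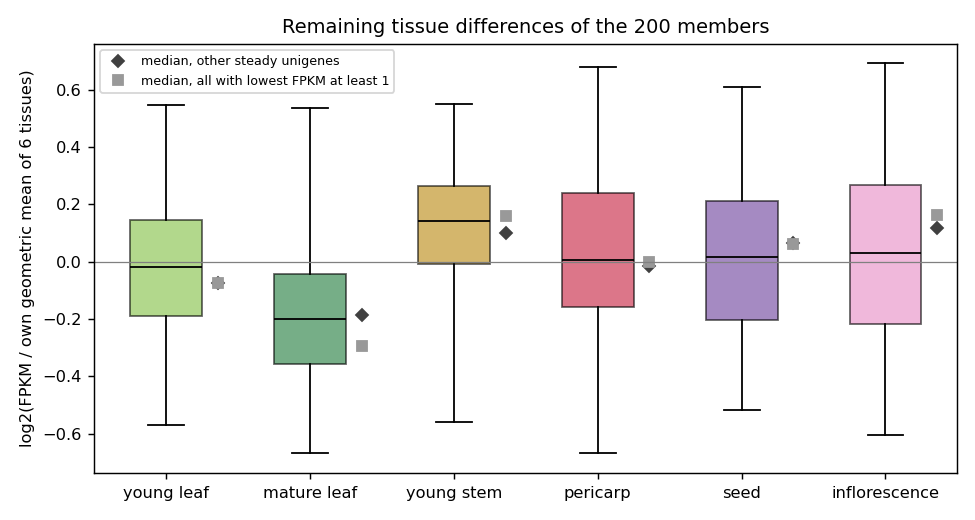
Residual of the 200 members, as log2 of FPKM over the own geometric mean of 6 tissues, in each tissue, with boxes for the quartiles, a line for the median and whiskers to the lowest and highest member. Diamonds and squares give the medians of the other 4071 steady unigenes and of all 26769 unigenes with a lowest FPKM of at least 1, and the median of the members is lowest, at -0.20, in mature leaf, and highest, at 0.14, in young stem.

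The highest value of a member fell in pericarp for 53, inflorescence for 45, young stem for 44, seed for 29, young leaf for 20 and mature leaf for 9. Pericarp was thus the highest tissue for 26.5% of the members, against 13.9% of the other steady unigenes. Inflorescence was the highest for 22.5% of the members, against 28.1% of the other steady unigenes. Of all 26769 unigenes with a lowest FPKM of at least 1, pericarp was the highest for 15.5% and inflorescence for 27.8%. Young stem was the highest for 17.2% of these, seed for 20.4%, young leaf for 9.19% and mature leaf for 9.96%. Among the 506 unigenes as abundant that were not steady, pericarp was the highest for 33.0% and inflorescence for 31.0%. The lowest value of a member fell in mature leaf for 75, inflorescence for 40 and seed for 31. It fell in pericarp for 24, young leaf for 21 and young stem for 9. Over all 26769 unigenes, inflorescence was the lowest for 15.3%, seed for 18.1% and pericarp for 14.2%. Young leaf was the lowest for 13.6% of these and young stem for 7.85%. Mature leaf was thus the lowest for 37.5% of the members, against 31.0% of all 26769 unigenes with a lowest FPKM of at least 1, 32.2% of the other steady unigenes and 48.6% of the 506 as abundant and not steady. The most frequent combinations were young stem highest with mature leaf lowest (22 members), inflorescence highest with mature leaf lowest (20), pericarp highest with mature leaf lowest (19) and pericarp highest with inflorescence lowest (17). Combinations were counted in the members only and include the shift of the libraries. Whether they are particular to the members was not tested.

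The tissue at the top rarely stood far from the next, a distance that the rule itself limits to 2 times. The median ratio of the highest to the second highest FPKM was 1.07 for members highest in young leaf, 1.14 for mature leaf, 1.08 for young stem, 1.09 for pericarp and for seed and 1.12 for inflorescence. The largest such ratio was 1.60, in Unigene249127, which had 205 in pericarp and between 108 and 128 in the other 5 tissues. Members highest in inflorescence had young stem second in 24 of 45, and members highest in pericarp had seed second in 19 of 53. The second tissue was not counted for other unigenes, so these counts have no background beside them. Both leaf values lay below all other tissues in 34 members (17.0%) and above them in 7 (3.5%), beside 22.6% and 4.30% of the other steady unigenes. Pericarp and seed were both above the other 4 tissues in 24 members (12.0%) and both below in 14 (7.0%). Over all 26769 unigenes with a lowest FPKM of at least 1 pericarp and seed were both above in 11.3% and both below in 9.55%, and the leaves were both below in 22.0% and both above in 9.55%.

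The members with the largest residuals show the forms that this bias took. Unigene122319 was the highest in young leaf relative to its own mean, with 335 in young leaf and between 183 and 270 elsewhere. Unigene224420 was the lowest there, with 57.1 in young leaf and 57.9 in mature leaf, beside 91.2 in young stem, 110 in pericarp, 103 in seed and 107 in inflorescence. Unigene239566 had its high values in leaves and young stem, at 174 in mature leaf, 146 in young leaf and 139 in young stem, and 90.0 to 100.5 in the other tissues. Unigene079982 had 54.3 in mature leaf and 79.1 to 108 in the other tissues. In Unigene224420 and Unigene239566 both leaves lay on the same side of the fruit tissues, and in the others only 1 leaf stage stood out.

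In stem and fruit, Unigene093983 reached 366 in young stem, with 188 to 290 elsewhere, and Unigene036043 had 60.9 in young stem, with 83.6 to 104 elsewhere. Unigene099685 was low in pericarp, at 62.3, with 91.4 to 121 elsewhere. Unigene139360, one of the 10 most abundant, was the lowest in seed relative to its own mean. Unigene270966 reached 178 in inflorescence, with 89.2 to 118 elsewhere, and Unigene072433 had 57.5 in inflorescence, with 80.6 to 112 elsewhere. The largest residual of any member was 0.69, for Unigene270966 in inflorescence, and the most negative was -0.67, for Unigene099685 in pericarp and Unigene079982 in mature leaf.

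The members also differed in which tissues lay close together. The median absolute log2 difference over the members was 0.21 between young leaf and young stem and 0.22 between young leaf and mature leaf, the 2 smallest of the 15 tissue pairs. It was 0.25 between pericarp and seed, and 0.37 between mature leaf and young stem, the largest on the deposited scale. That pair also held the lowest and one of the highest shifts over all unigenes, given above. By the SD of the log2 difference, which a shift of a library does not change, mature leaf with young stem was at 0.37, young leaf with mature leaf and with young stem at 0.29, the smallest, and pericarp with inflorescence at 0.47, the largest. Between mature leaf and young stem, the members were higher in mature leaf in 42 of 200. For the 506 unigenes as abundant that were not steady, which the rule set apart by their spread, the median difference was 0.40 between young leaf and young stem and 0.90 between mature leaf and young stem. Pearson's r of the residuals over the 200 members was 0.19 for young leaf with mature leaf, 0.13 for young leaf with young stem, -0.43 for young leaf with seed and -0.40 for mature leaf with young stem. The 6 residuals of a unigene sum to 0, which by itself gives negative values, and members of a library share its depth and scaling, so these values are a description only.

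A tissue left out of the choice gives values that the choice did not use. When the rule was applied to the other 5 tissues, the 200 unigenes chosen were still within the ratio of 2 once young leaf was added in 190 cases, young stem in 180, seed in 155, pericarp in 147, inflorescence in 122 and mature leaf in 115. The value in the left-out tissue was also set against the median of the other 5, and counted when it lay within 2 times of it, up or down. For young leaf this held for 200 of the 200 chosen, against 86.3% of the unigenes as abundant that were not chosen. For young stem it held for 193 (96.5%), against 87.4% of those not chosen. Seed and pericarp each gave 179 (89.5%) of the chosen, against 62.5% (seed) and 72.0% (pericarp) of those not chosen. The lowest counts were 166 (83.0%) for mature leaf, against 61.3%, and 165 (82.5%) for inflorescence, against 68.2%. These counts use the deposited values, which carry the shift of the libraries. That shift was lowest in mature leaf, at -0.29, and highest in inflorescence, at 0.16. Mature leaf lay below all other 5 tissues in 134 of the 200 chosen and above them in 8. For inflorescence it was 64 below and 69 above. The part of the shift in these counts was not tested.

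In the library labelled mature stem, the members had low values or none. None of the 200 lay within 2 times of its median over the other 6 tissues, and all 200 lay below 10% of it. The same held for 99.4% of all 26769 unigenes with a lowest FPKM of at least 1, and for 98.4% of the 506 as abundant and not steady, so this is not particular to the members. Their summed FPKM was 60.2 in mature stem, which is 0.00607% of that library, against 22526 to 27479 in the other tissues. Of the members, 68 (34.0%) were listed at 0 in mature stem, 122 were above 0 and below 1 FPKM, and 10 reached 1 FPKM. At least 1 FPKM was reached by 89 of the 506 as abundant and not steady and by 252 of all 26769. The name steady therefore covers the 6 tissues of the rule and does not extend to mature stem.

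The share listed at 0 followed the level. Within the members it was 37.7% below a lowest FPKM of 100 and 27.3% from 100 up to 200, and it was 1 of 10 members at 200 or more. It was 81.1% over all unigenes with a lowest FPKM of at least 1 and 79.1% among the other steady unigenes, which are less abundant than the members. It was 28.3% among the 506 unigenes as abundant that were not steady. Above 0, the mature stem value of a member had a median of 0.298% of its own median over the other tissues, with quartiles of 0.196% and 0.448%. For the as abundant, not steady unigenes above 0 the median was 0.272%. A value of 0 may reflect an estimate that failed, so these unigenes are only described as listed at 0.

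The members with the highest FPKM in mature stem were Unigene071317 with 2.53, Unigene241582 with 1.99, Unigene036043 with 1.95, Unigene273251 with 1.68 and Unigene125731 with 1.22. Their medians in the other tissues were 123, 480.01, 98.7, 736 and 119 FPKM. Unigene071317 had the highest value relative to its own median, at 2.06%. The next was Unigene036043, the member that was also lowest in young stem relative to its own mean, at 1.98%. Among the most abundant, Unigene101075 was listed at 0 in mature stem with a lowest FPKM of 238 elsewhere. With mature stem included in the rule, 1 unigene of the whole table was steady and no member was. It was Unigene068438, named after its values were seen, with 5.12 FPKM in mature stem and 3.04 to 3.99 in the other 6 tissues.

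**Figure D4:**
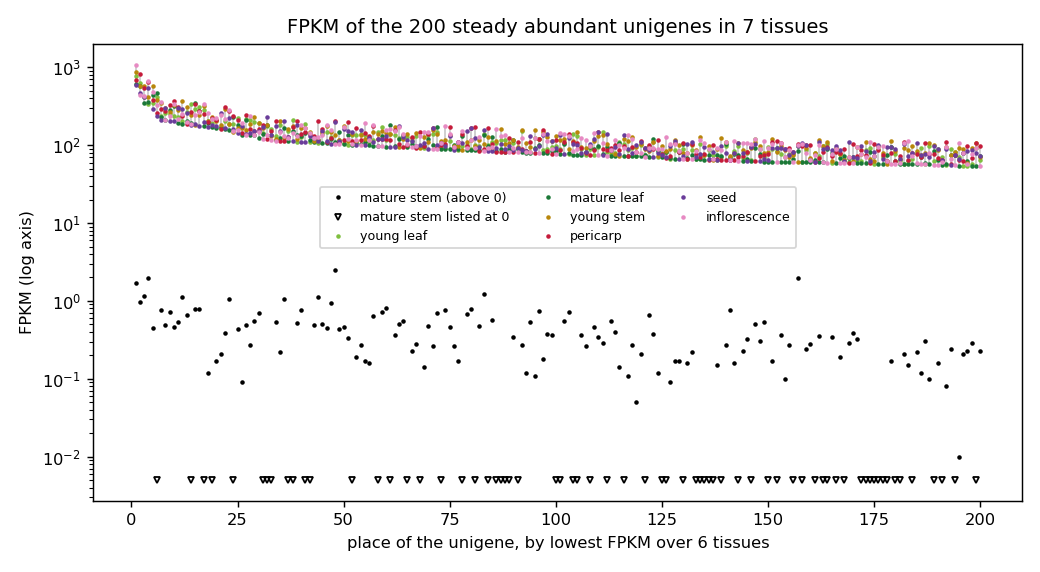
FPKM (log axis) of the 200 members in each tissue, in order of their lowest FPKM over 6 tissues, with a grey line from the lowest to the highest of the 6 coloured points. Black points give mature stem values above 0, at most 2.53 FPKM, and open triangles, drawn at a fixed height below the values, mark the 68 members listed at 0 there.

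Of the 549 unigenes on the study's enzyme and CYP lists, 148 had the lowest FPKM of at least 1 that the rule requires. Of these 148, 1 was a member, beside 200 of all 26769 such unigenes. The listed member was Unigene193292, annotated as squalene synthase (SQS), which joins farnesyl diphosphate units into squalene, the precursor of both sterols and triterpenoids. It had an FPKM of 60.4 in young leaf, 68.2 in mature leaf, 70.6 in young stem, 58.8 in pericarp, 109 in seed and 70.5 in inflorescence, with 0.29 in mature stem. Its seed value stood apart, with a residual of 0.61, the largest of any member in seed, while the other 5 tissues lay between 58.8 and 70.6. Among the 148 listed unigenes with a lowest FPKM of at least 1, 11 (7.43%) were steady, beside 16.0% of all such unigenes. By list, 4 of 27 triterpenoid, 3 of 31 iridoid, 2 of 15 gallotannin and 2 of 82 CYP unigenes were steady. The study filtered its CYP list on transcript length and on FPKM in at least 1 of the 7 tissues.

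The other 10 steady enzymes were less abundant than the members. The first was Unigene108827, annotated as 3-deoxy-D-arabinoheptulosonate 7-phosphate synthase (DAHPS), the entry enzyme of the shikimate pathway, at place 309 of the steady unigenes. It had 57.8 in young leaf, 71.1 in mature leaf, 43.4 in young stem, 80.3 in pericarp, 79.7 in seed and 52.5 in inflorescence. The other steady SQS unigenes were Unigene121362 with 20.1 to 29.3 FPKM, highest in seed, and Unigene051925 with 15.3 to 26.8, lowest in seed and highest in inflorescence. The CYPs were Unigene079928 with 19.2 to 38.2 and Unigene180501 with 16.4 to 20.8. Unigene180501 had a ratio of 1.27, the smallest among the enzymes. In the iridoid list they were Unigene036303 with 13.4 to 25.1, annotated as the glucosyltransferase 7DLGT, and the geranyl diphosphate synthases (GPPS) Unigene035419 with 9.70 to 18.3 and Unigene260438 with 6.34 to 11.2. The lowest were Unigene124678 with 1.78 to 2.94, annotated as dehydroquinate dehydratase and shikimate dehydrogenase, and the lupeol synthase (LS) Unigene105419 with 1.11 to 2.18.

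Of the 148 listed unigenes with a lowest FPKM of at least 1, 4 were as abundant as the members in all 6 tissues. Over all 26769 such unigenes, 706 were. The 3 listed ones besides Unigene193292 were not steady. These were Unigene122572, annotated as 8-hydroxygeraniol oxidoreductase (8HGO) of the iridoid pathway, with 107 in seed and 359 to 591 in the other tissues, and the DAHPS Unigene070183 with 79.1 in inflorescence and 655 in seed. The last was Unigene252093, annotated as 3-dehydroquinate synthase (DHQS), with 59.9 in inflorescence and 165 in seed. Each had a ratio above 2, at 5.55, 8.29 and 2.76.

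Near-identical copies of a gene share reads, and the estimate divides these between them, so a member that is 1 of several copies is less certain than a single one. Neighbouring unigene numbers were used as a rough proxy for copies, since 69 of the 299 unigenes on the 3 pathway lists (23.1%) had a neighbour annotated as the same enzyme. Most listed unigenes had no such neighbour, so the proxy can miss copies. No pair of members had neighbouring numbers, which says little about copies with 200 of 304371 unigenes taken. A neighbour with a lowest FPKM of at least 1 was found for 71 members (35.5%), beside 41.7% of the 506 as abundant and not steady and 39.9% of all 26769. Summed with the unigenes 1 number below and 1 above, 12 of these 71 members (16.9%) passed the ratio of 2. For most of the other members there was little to add, since the neighbours added 10% or more to only 55 of the 200, and 183 of the 200 stayed within the ratio. The largest addition, named after its values were seen, was to Unigene222034, with 60.8 to 99.99 FPKM. Its neighbour Unigene222033 had 1494 in young leaf, 1935 in mature leaf, 248 in young stem, 197 in pericarp, 33.2 in seed and 156 in inflorescence. Unigene174667, the most level member on the deposited scale, had a ratio of 1.56 when summed with its neighbours. Whether these unigenes are copies of the same gene was not tested.

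The membership depended on how the libraries were scaled. After each library was rescaled to the same sum, 181 of the 200 members were still within the ratio of 2, and after division by the median ratio of each library it was 172. Of the 10 most abundant members, Unigene139717 and Unigene101075 passed the limit after division by the median ratio, at 2.06 and 2.54, and Unigene256245 after rescaling to the same sum, at 2.01. Under both rescalings and the deposited values together, 157 members were within 2 times, 22 within 1.5 times and 0 within 1.25 times. Among these 22, named after their values were seen, Unigene241168, Unigene271901 and Unigene139751 had the highest lowest FPKM, at 173.8, 173.5 and 168.2. Their ratios under the 3 scalings were 1.40 to 1.49, 1.31 to 1.39 and 1.29 to 1.33. The number of steady unigenes in the table was 4271 with all 6 tissues, 6491 without mature leaf and 7403 without inflorescence, and 115 and 122 of the members were chosen again without these tissues.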

How the data were processed

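RNA-seq libraries of 7 tissues, 1 per tissue, were used. The authors trimmed the reads with Trimmomatic, assembled them *de novo*, joined the assemblies and removed redundancy with CD-HIT-EST, mapped each tissue with Bowtie 2 and estimated FPKM with RSEM. Tool versions are not given in the sources used here. The deposited FPKM values were used as they stand. The table of all tissues and the single-tissue tables were equal (largest difference 0 FPKM). FPKM holds no read counts, so the depth is unknown beyond the relative value read above, and no count test was run.

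The rule of the set was applied to 6 tissues, with ties by unigene identifier. Unigenes as abundant and not steady are those with a lowest FPKM of at least that of the last member and a ratio above 2. Median ratios of libraries were taken over unigenes with a lowest FPKM of at least 1, against the geometric mean. Mature stem was called low below 10% of the median of the other tissues. Enzyme names came from the study's lists, without their values.

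Named unigenes are the 10 members with the highest lowest FPKM, the 5 with the smallest ratio, 3 on each side of each limit, the highest and lowest residual per tissue, the 5 highest in mature stem, every listed enzyme among the members and the 10 next steady ones. Others are said to be named after their values were seen. The members and lists were chosen with earlier results of these data known. Alternatives covered scaling, ratio limit, measure of spread, tissues, list length, ranking, centring and pseudocount. The tools were pandas 2.3.3, numpy 2.4.6 and scipy 1.17.1 under Python 3.11.15, with figures from matplotlib 3.10.9.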

Additional observations from a re-analysis of the deposited data

How the results depend on the processing

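The count of steady unigenes was 661 at a ratio of at most 1.5, 12200 at most 3, 1845 with a lowest FPKM of at least 10, 6491 without mature leaf, 7403 without inflorescence and 1 with mature stem included. Of the 200 members, 124 were chosen again after division by the median ratio of each library, 44 at a ratio of at most 1.5, 85 at most 3, 115 without mature leaf, 122 without inflorescence and 0 with mature stem included. At a ratio of at most 3, more unigenes of higher level enter the list by construction. Under the other 8 alternatives 138 to 191 were chosen again.

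The members listed at 0 in mature stem were 57.0% at a ratio of at most 1.5, 23.5% at most 3, 27.0% of 100 members, 42.0% of 400 and 0% of the 1 unigene found with mature stem included, and 95% of the members were below 1 FPKM. The median share of the library sum, 2.75%, was 4.06% with the median ratio, 1.13% and 5.91% at ratios of at most 1.5 and 3, 2.51% with a CV of at most 0.25, 3.23% with the leaf stages as 1 tissue, 1.83% and 4.001% for 100 and 400 members, and 0.000389% with mature stem. Without mature leaf, young stem, pericarp, seed and inflorescence it was 3.75%, 2.98%, 3.46%, 3.13% and 4.39%.

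With the median ratio, the median residual reversed to 0.096 in mature leaf and to -0.014 in young stem, and was -0.13 in inflorescence. This follows from dividing by the shift of all unigenes. Among 100 members the residual in seed was -0.085. Steady enzymes numbered 2 at a ratio of at most 1.5 and 26 at most 3, alternatives chosen after seeing the data. The median over the 15 tissue pairs of the members' difference, 0.29 on the log2 scale, was 0.30 with libraries of equal sum and 0.28 with the median ratio, also chosen after seeing the data.

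No paired analysis was possible because each tissue has 1 library and no test was run. Differences between tissues carry no replicate error, and the lengths and counts behind the FPKM were not used here.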
